A study of Mus musculus with 2 samples.

Results

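Expression of 7 genes that write, maintain or remove DNA methylation was examined in mouse embryonic stem cells (mESCs) before and after alternative lengthening of telomeres (ALT), the recombination-based upkeep of chromosome ends. The genes were chosen by name and were the de novo methyltransferase genes Dnmt3a and Dnmt3b, their partner Dnmt3l, the maintenance pair Dnmt1 and Uhrf1, and the oxidising enzymes Tet1 and Tet2. They were 7 of 38458 gene columns, and all 7 belonged to the 6984 genes that had at least 50 counts over both libraries together, called tested genes here. The cells were of the E14-derived line DKO741, in which both alleles of Terc, the RNA template of telomerase, had been removed by gene targeting, so PD100 and PD800 cells share this deletion and there is no wild-type library. PD100 cells were labelled as passage 100 (pre-ALT) and PD800 cells as passage 800 (post-ALT). The study's text gives PD as population doubling, so the sources differ on the unit, and passage is used here as in the labels. The line is 1 of a pair of targeted lines that the study's methods name, and the other was not analysed here. It was kept on embryonic fibroblast feeders for stocks and grown without them for experiments. Transcripts were counted by inDrops, in which cells are captured in droplets and each RNA molecule receives a unique molecular identifier (UMI).

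Each passage had 1 library. No test was therefore possible, no spread between replicates is known, and passage and library preparation cannot be told apart. Intervals are given at 95% throughout and describe counting error alone. After barcodes under 1000 UMIs or over 20% mitochondrial UMIs were left out, 814 of 1291 PD100 barcodes and 900 of 1666 PD800 barcodes remained as cells. They held 1826233 and 2580963 UMIs, at a median of 2151 and 2701.5 per cell, and a median of 1.23% and 4.42% of these were mitochondrial. The deleted gene Terc had 0 UMIs in either library, where 3 counts amount to 1.64 CPM in PD100 (CPM are counts scaled to the same total for every library) and 1.16 CPM in PD800. Without a wild-type library, these 0 counts cannot show the deletion, because it is not known whether this method would count Terc where it is present. The 10 embryonic stem cell markers, among them Pou5f1 and Sox2, summed to 12685 CPM in PD100 and 12790 CPM in PD800, of which Dppa5a alone gave 8841 and 9676 CPM. Within this list, Nanog and Esrrb, factors of the naive state, were at least 2-fold higher in PD800 (log2 ratios of 1.00 and 1.51), while Dppa4 and Tdh stood at -0.98 and -0.95. The 10 fibroblast markers summed to 17.5 and 13.9 CPM, with 2 of the 10 at 0 in each library. Of 17 extraembryonic endoderm markers, at least 5 were detected together in 40 PD100 cells and in 0 PD800 cells. These 40 cells are treated separately where they bear on a gene. The tables shared 21 barcodes, of which 8 were cells in both libraries.

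In mammals DNA methylation sits mostly on cytosines that are followed by guanine (CpG sites) and is set and kept by separate enzymes. DNMT3A and DNMT3B methylate unmarked sites, and DNMT3L, which has no catalytic activity of its own, binds and stimulates them in germ cells and embryonic stem cells. DNMT1 copies the pattern to the new strand after replication, guided by UHRF1, which binds hemimethylated sites. TET1 and TET2 oxidise the methyl group, after which it is lost by dilution or base repair. Embryonic stem cells are known for tolerating loss of methylation, and for levels of methylation that fall in the naive state and climb as cells move towards the primed state.

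The promoters of the members differ in how many CpG sites they hold, and 3 are shown because they belong to the members that were at least 2-fold apart between the libraries. Promoters were 300-base windows from RefSeq (GRCm38.p6), from 250 bases before to 50 bases after an annotated start, printed 5′ to 3′ with CpG sites in capitals. The Dnmt3a window is the internal start, from which the short form that dominates in embryonic stem cells is known to begin. The counts are of transcript ends and do not tell which start was used.

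Dnmt3b, chr2:153649199-153649498, plus strand: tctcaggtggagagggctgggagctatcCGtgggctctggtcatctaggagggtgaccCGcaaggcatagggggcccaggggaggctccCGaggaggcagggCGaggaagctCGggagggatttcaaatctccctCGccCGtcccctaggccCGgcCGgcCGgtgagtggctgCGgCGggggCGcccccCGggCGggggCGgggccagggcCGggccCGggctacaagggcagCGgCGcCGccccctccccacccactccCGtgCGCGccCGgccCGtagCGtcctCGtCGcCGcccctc
Dnmt3a, chr12:3891494-3891793, plus strand: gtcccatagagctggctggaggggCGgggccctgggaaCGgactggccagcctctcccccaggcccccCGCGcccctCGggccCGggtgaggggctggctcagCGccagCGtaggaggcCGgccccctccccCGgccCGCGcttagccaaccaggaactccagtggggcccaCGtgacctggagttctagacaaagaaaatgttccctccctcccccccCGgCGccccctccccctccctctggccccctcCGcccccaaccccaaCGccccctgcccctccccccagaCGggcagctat
Tet2, chr3:133544341-133544640, minus strand: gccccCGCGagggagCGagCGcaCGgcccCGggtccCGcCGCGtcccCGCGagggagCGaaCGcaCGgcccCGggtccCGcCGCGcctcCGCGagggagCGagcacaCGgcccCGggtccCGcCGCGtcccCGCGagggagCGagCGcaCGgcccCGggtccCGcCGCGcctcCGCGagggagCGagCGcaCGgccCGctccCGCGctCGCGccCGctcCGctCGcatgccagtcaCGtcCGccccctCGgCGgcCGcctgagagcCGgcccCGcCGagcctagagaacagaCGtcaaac

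These windows held 30 CpG sites for Dnmt3b, 18 for the internal Dnmt3a start and 57 for Tet2, against a median of 7 over 32851 promoters of the same length. The Tet2 window had more sites than 99.8% of all promoters. Both upstream Dnmt3a windows, with 46 and 47 sites, were denser than the internal start. Dnmt3l was at the other end, with 6, 4 and 3 sites at its 3 annotated starts, and Dnmt1 had 2, 12 and 33 sites at its 3 starts. Uhrf1 had 12 and 33 sites and Tet1 had 17. The GC box, searched as GGGCGG on both strands and itself holding a CpG, was present in all 3 printed windows and in 35.7% of all promoters. None of the 3 held CCAAT (37.4% of promoters), TATAAA (13.6%) or the E2F motif, searched as TTTCCCGC or TTTGGCGC (1.56%). The E2F motif was found in a member only at the Dnmt1 start with 33 CpG sites. No methylation was measured in these cells, and a match in a window is not a binding site.

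Among the de novo genes, Dnmt3b differed most between the passages. Dnmt3b (chromosome 2, 153649450 to 153687730, plus strand, GRCm38) had 167 UMIs in PD100 and 50 in PD800, that is 91.4 CPM (78.1 to 106, exact Poisson) against 19.4 CPM (14.4 to 25.5). The PD100 level was 4.72-fold higher, and the counting intervals of the libraries do not overlap. The log2 ratio, PD800 over PD100, was -2.24 (-2.72 to -1.78, exact conditional interval).

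Dnmt3a (chromosome 12, 3806007 to 3914443, plus strand) was lower in PD800 as well, by less. It had 145 UMIs in PD100 and 102 in PD800, or 79.4 CPM (67.0 to 93.4) against 39.5 CPM (32.2 to 48.0), and a log2 ratio of -1.01 (-1.39 to -0.63). This value lies at the 2-fold limit itself, and only 1 of 9 other ways of processing kept it past the limit, while all 9 kept it below 0.

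Dnmt3l, the cofactor (chromosome 10, 78041947 to 78063622, plus strand), was close to level between the libraries. It had 217 and 252 UMIs, or 119 CPM (104 to 136) in PD100 and 97.6 CPM (86.0 to 110) in PD800. Its log2 ratio of -0.28 (-0.55 to -0.01) turned to 0.19 when the libraries were scaled by median-of-ratios size factors instead of their totals.

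The make-up of the de novo group therefore differed between the libraries, which no scaling of a library can alter. Dnmt3b supplied 53.5% of the UMIs of Dnmt3a and Dnmt3b in PD100 (167 of 312, 47.8 to 59.2, exact binomial) and 32.9% in PD800 (50 of 152, 25.5 to 41.0). The share of Dnmt3l among the 3 Dnmt3 genes was 41.0% in PD100 (36.8 to 45.3) and 62.4% in PD800 (57.5 to 67.1). Summed, the catalytic genes Dnmt3a and Dnmt3b stood at 171 CPM (152 to 191) in PD100 and 58.9 CPM (49.9 to 69.0) in PD800, which is -1.54 as a log2 ratio (-1.83 to -1.25). Capture can differ between genes, so these shares compare the libraries and not the amounts of each protein.

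The maintenance pair differed little. Dnmt1 (chromosome 9, 20907209 to 20959888, minus strand) had 48 UMIs in PD100 and 59 in PD800, or 26.3 CPM (19.4 to 34.8) and 22.9 CPM (17.4 to 29.5). Its log2 ratio was -0.20 (-0.78 to 0.38). Uhrf1 (chromosome 17, 56303321 to 56323486, plus strand) had 78 and 90 UMIs, or 42.7 CPM (33.8 to 53.3) and 34.9 CPM (28.0 to 42.9), with a log2 ratio of -0.29 (-0.75 to 0.16). Both intervals include 0, and both ratios turned positive, to 0.27 and 0.18, with median-of-ratios scaling. A difference inside these intervals was not detectable at this depth. Between the catalytic de novo genes and the maintenance pair the balance differed. Dnmt3a and Dnmt3b made up 71.2% of the UMIs of Dnmt3a, Dnmt3b, Dnmt1 and Uhrf1 in PD100 (66.7 to 75.4) and 50.5% in PD800 (44.7 to 56.3).

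The 2 erasers differed in opposite directions, Tet1 being lower and Tet2 higher in PD800. Tet1 (chromosome 10, 62804570 to 62908996, minus strand) had 93 UMIs in PD100 and 69 in PD800, or 50.9 CPM (41.1 to 62.4) against 26.7 CPM (20.8 to 33.8). It was lower in PD800, at a log2 ratio of -0.93 (-1.40 to -0.46), just inside the 2-fold limit. Of 9 other ways of processing, 3 put Tet1 past the limit, and all 9 kept it below 0. Tet2 (chromosome 3, 133463679 to 133545139, minus strand) was the 1 member at least 2-fold higher in PD800. It had 13 UMIs in PD100 and 61 in PD800, or 7.12 CPM (3.79 to 12.2) against 23.6 CPM (18.1 to 30.4). Its log2 ratio was 1.73 (0.85 to 2.72). Tet2 supplied 12.3% of the UMIs of Tet1 and Tet2 in PD100 (13 of 106, 6.69 to 20.1) and 46.9% in PD800 (61 of 130, 38.1 to 55.9). Their sum was 58.0 CPM (47.5 to 70.2) in PD100 and 50.4 CPM (42.1 to 59.8) in PD800, at a log2 ratio of -0.20 (-0.59 to 0.18).

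**Figure D1:**
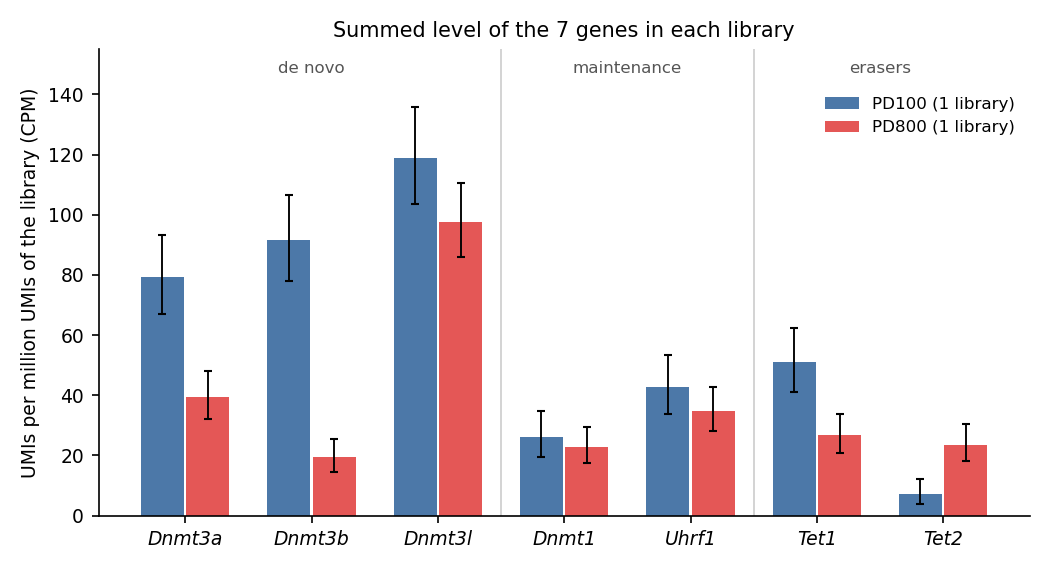
Summed level of each gene in CPM, with PD100 in blue and PD800 in red, 1 library each. Bars start at 0 and error bars are 95% exact Poisson intervals of the counts, which do not overlap for Dnmt3a, Dnmt3b, Tet1 and Tet2.

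Read against all genes, 2 of the 7 were at least 2-fold lower in PD800 (Dnmt3a and Dnmt3b), as were 16.9% of tested genes, and 1 was at least 2-fold higher (Tet2), as were 9.22%. The members held 74 to 469 UMIs, and among the 5419 tested genes under 500 UMIs these shares were 19.0% and 8.23%. Counts of 2 and 1 among 7 genes are not read as a result about the group. The median log2 ratio of all tested genes was -0.34 (-0.36 to -0.32), and that of the members was -0.29. Relative to the median of all tested genes, Dnmt3b stood at -1.90, Dnmt3a at -0.66, Tet1 at -0.59, Uhrf1 at 0.05, Dnmt3l at 0.06, Dnmt1 at 0.14 and Tet2 at 2.07. On that scale only Dnmt3b was at least 2-fold lower, beside 7.79% of tested genes, and only Tet2 at least 2-fold higher, beside 13.9%. By its ratio Dnmt3b took rank 109 from the lowest and Tet2 rank 336 from the highest of 6984 tested genes.

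**Figure D2:**
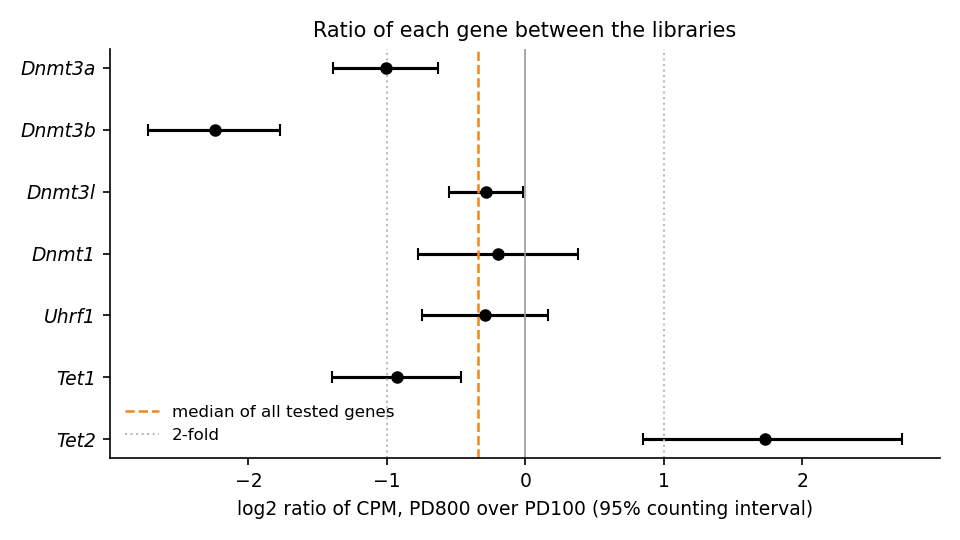
Log2 ratio of CPM, PD800 over PD100, for each gene (points) with its 95% exact conditional interval for counting error. The dashed line marks the median of all 6984 tested genes (-0.34) and dotted lines mark 2-fold. Dnmt3b at -2.24 and Tet2 at 1.73 lie farthest from the dashed line on either side.

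To see whether these differences lay in the number of cells with a transcript, all cells were reduced to 1000 UMIs by random thinning. Dnmt3b was then detected in 7.13% of PD100 cells (58 of 814, exact binomial interval 5.45 to 9.11) and 1.67% of PD800 cells (15 of 900, interval 0.936 to 2.73). For Dnmt3a the shares were 6.14% (4.59 to 8.02) and 3.00% (1.99 to 4.33), and for Tet1 5.04% (3.64 to 6.77) and 2.56% (1.63 to 3.81). Tet2 was found in 0.983% of PD100 cells (0.425 to 1.93) and 2.67% of PD800 cells (1.72 to 3.94).

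The remaining members were found in like shares of cells. Dnmt3l had the highest share, at 8.72% in PD100 (6.87 to 10.9) and 8.67% in PD800 (6.91 to 10.7). Uhrf1 was found in 4.18% (2.91 to 5.79) and 3.67% (2.54 to 5.11), and Dnmt1 in 2.58% (1.60 to 3.92) and 2.33% (1.45 to 3.54). At full depth, without thinning, the shares of PD100 and PD800 cells were higher and the libraries differ in depth. They were for Dnmt3b 12.7% and 4.44%, for Dnmt3a 11.8% and 9.11%, for Tet1 8.60% and 6.56%, for Tet2 1.60% and 5.22%, for Dnmt3l 16.6% and 19.6%, for Uhrf1 7.62% and 7.67%, and for Dnmt1 4.67% and 5.67%. No cell type present was known to lack these transcripts, so no background share from free RNA can be given for the libraries as a whole.

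At this depth most cells had none of the 7. Any member was seen in 234 of 814 thinned PD100 cells (28.7%, 25.7 to 32.0) and 201 of 900 PD800 cells (22.3%, 19.7 to 25.2), and at least 2 members in 47 PD100 cells (5.77%, 4.27 to 7.60) and 19 PD800 cells (2.11%, 1.28 to 3.28). Dnmt3a or Dnmt3b was seen in 12.2% of PD100 cells (9.996 to 14.6) and 4.67% of PD800 cells (3.38 to 6.26), and both together in 9 PD100 cells and 0 PD800 cells. As each gene alone was found in fewer PD800 cells, these counts do not tell whether joint detection differed beyond that. A single mean for all cells of PD100 would have put Dnmt3b in 9.14% of cells, above the 7.13% observed, and single thinned cells held up to 4 of its UMIs. This was not particular to Dnmt3b. Dnmt3a (7.33% against 6.14% observed), Dnmt3l (9.92% against 8.72%) and Tet1 (5.84% against 5.04%) were likewise above in PD100. For Tet2 in PD100 the values were 0.978% and 0.983%, and for Dnmt3b in PD800 1.76% and 1.67%. No member reached 10% of thinned cells in both libraries, so no gene was named for a like pattern across cells.

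**Figure D3:**
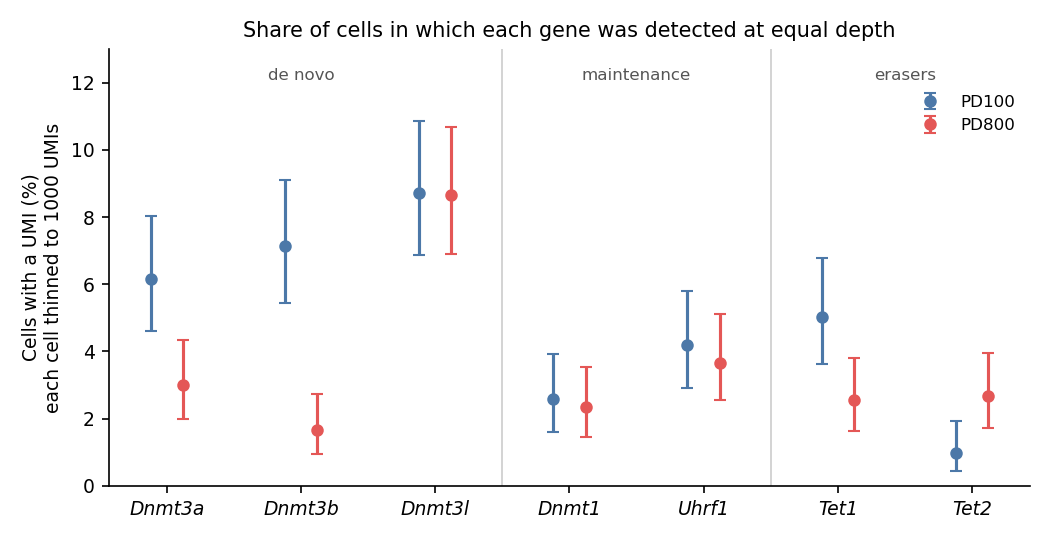
Percent of cells with at least 1 UMI of each gene after every cell was thinned to 1000 UMIs, for 814 PD100 cells (blue) and 900 PD800 cells (red), with 95% exact binomial intervals. The shares of Dnmt3b (7.13% and 1.67%) are the farthest apart, and those of Dnmt3l (8.72% and 8.67%) are nearly level.

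Dnmt3b had a higher summed level in the PD100 cells with endoderm markers than in the other PD100 cells. In the 40 cells with endoderm markers it stood at 239 CPM (152 to 359, 23 UMIs in 9 cells), and in the other 774 cells at 83.2 CPM (70.2 to 98.0, 144 UMIs in 94 cells). The log2 ratio between them was 1.52 (0.82 to 2.16). Single PD100 cells held up to 6 Dnmt3b UMIs at full depth. Intervals for levels in classes of cells, here and below, treat each UMI as a separate draw. They leave out spread between cells and are therefore too narrow where UMIs lie together in a cell. Dnmt3a and Dnmt3l were at 93.6 CPM (42.8 to 178) and 166 CPM (95.1 to 270) in the 40 cells, against 78.6 and 116 CPM in the other cells, with intervals of the ratio that include 0. The median depth was 2379.5 UMIs in the 40 cells and 2145 in the other cells.

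Of the maintenance and eraser genes, Uhrf1 and Tet1 were lower in these 40 cells than in the other PD100 cells, and for Dnmt1 and Tet2 the interval of the ratio included 0. Uhrf1, Tet1 and Tet2 each had 0 of 96177 UMIs, for which the exact Poisson upper limit is 38.4 CPM. The other PD100 cells stood at 45.1 CPM for Uhrf1, 53.8 CPM for Tet1 and 7.51 CPM for Tet2. For Tet2 that limit is above the level of the other cells, so no difference was detectable. Dnmt1 had 1 UMI, or 10.4 CPM (0.263 to 57.9), against 27.2 CPM (19.96 to 36.1). Left without the 40 cells, the comparison of the libraries gave log2 ratios of -2.10 for Dnmt3b, -0.99 for Dnmt3a, -1.01 for Tet1 and 1.65 for Tet2. The difference in Dnmt3b was thus nearly as large among cells without these markers, while Dnmt3a and Tet1 changed sides of the 2-fold limit.

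Of 7 markers of the primed or formative state, towards which methylation climbs in the embryo, 2 had enough UMIs to be tested, Otx2 and Etv4. Both were at least 2-fold lower in PD800, as were 16.9% of all tested genes. Otx2, a transcription factor of the formative state, had a log2 ratio of -1.74 (-2.19 to -1.31), and Etv4, an ETS factor, of -2.27 (-2.84 to -1.74). The 7 genes summed to 346 UMIs in PD100 and 128 in PD800, of which Otx2 gave 149 and 63 and Etv4 130 and 38. The other 5 did not go one way: Pou3f1 had 44 and 5 UMIs, Lef1 had 11 and 6, Fgf5 had 7 and 2, Zic2 had 4 and 5 and Sox3 had 1 and 9. Within PD100, the 116 cells with a UMI of this list had 124 CPM of Dnmt3a (85.6 to 175) and the 698 cells without had 71.8 CPM (59.1 to 86.3), a log2 ratio of 0.79 (0.19 to 1.36). For Dnmt3b the same cells had 121 and 86.5 CPM, at 0.48 (-0.12 to 1.04), and Tet2 had 0 UMIs in the 116 cells. Of the PD100 cells with endoderm markers, where Dnmt3b stood higher, 39 were among the 698 cells and 1 among the 116. They were not left out of this comparison. Intervals of the 6 other members included 0 in PD100, as did those of all 7 in PD800, where 51 thinned cells carried a UMI of the list. The part of these cells in the difference between the libraries was not tested. In the 189 PD100 cells with a Lefty1 or Lefty2 UMI, a class chosen after values were seen, all 7 intervals of the ratio to the other cells included 0. Those other cells held 37 of the cells with endoderm markers.

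DNMT1 and UHRF1 act at the replication fork, so levels were also split by S phase transcripts. Nearly every cell held a UMI of the 39-gene S phase list, and only 13 PD100 and 9 PD800 cells held none, too few for a description. The list was therefore split, after its values were seen, at the library median of the thinned counts and without Pola1. At full depth Pola1 held 272 of the list's 8730 UMIs in PD100 and 3404 of 12648 in PD800. In PD100, Dnmt1 stood at 40.4 CPM (28.0 to 56.4) in the 378 cells above the median and 14.2 CPM (7.78 to 23.9) in the 436 cells at or below it, a log2 ratio of 1.51 (0.57 to 2.52). Dnmt3a was at 99.8 against 62.0 CPM, a log2 ratio of 0.69 (0.19 to 1.19). Of the 40 cells with endoderm markers, 32 lay at or below the median, and without them the ratios were 1.38 and 0.79.

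In PD800 a split at that library's own median gave no interval apart from 0. The median was 4 UMIs in PD100 and 3 in PD800, so the classes were cut at different counts. Dnmt1 was at 20.2 CPM (12.9 to 30.0) in the 420 cells above the median and 25.2 CPM (17.5 to 35.0) in the other 480 cells, a log2 ratio of -0.32 (-1.13 to 0.47), as the intervals of all 7 members included 0. Uhrf1 did not follow the split in either library, with log2 ratios of -0.15 (-0.84 to 0.53) in PD100 and -0.16 (-0.80 to 0.47) in PD800. Results depended on where cells were split. With 2 or more S phase UMIs against 0 or 1, a split also made after the values were seen, 749 PD100 cells stood against 65 and 842 PD800 cells against 58. There the PD100 intervals for Dnmt1 (0.37, -1.27 to 2.70) and Dnmt3a (0.99, -0.17 to 2.46) included 0, and those of Dnmt3b (-0.74, -1.41 to -0.0088) and Dnmt3l (-0.84, -1.41 to -0.23) lay below it. In PD800 that of Dnmt3l lay above 0, at 1.59 (0.34 to 3.22). With 2 or more against 0 UMIs, the 13 and 9 cells without any were again too few for a description. Whether the libraries differ in these relations was not tested.

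Genes lying beside each member on its chromosome were then examined. Up to 25 tested genes on each side were taken. The 50 neighbours of Dnmt3b had a median log2 ratio of -0.37, close to that of all tested genes, and none of them was as low as Dnmt3b. The 29 neighbours of Dnmt3a, which lies near a chromosome end with 4 tested genes before it, had a median of -0.35, and 4 of them were lower than Dnmt3a.

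Both Tet genes lay among neighbours that themselves stood apart from the rest of the genome. The 50 neighbours of Tet1, from 56377330 to 75921617 on chromosome 10, had a median log2 ratio of -1.11 with quartiles of -1.65 and -0.57. Tet1 at -0.93 was within that range, and 30 of the 50 were lower. The 50 neighbours of Tet2, from 121723537 to 145894277 on chromosome 3, had a median of 0.48 with quartiles of 0.16 and 1.14. Tet2 at 1.73 was above 44 of the 50. The part of these regions in either ratio was not tested. Neighbours of Dnmt1, Uhrf1 and Dnmt3l had medians of -0.45, -0.45 and -0.60, each below the gene itself.

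**Figure D4:**
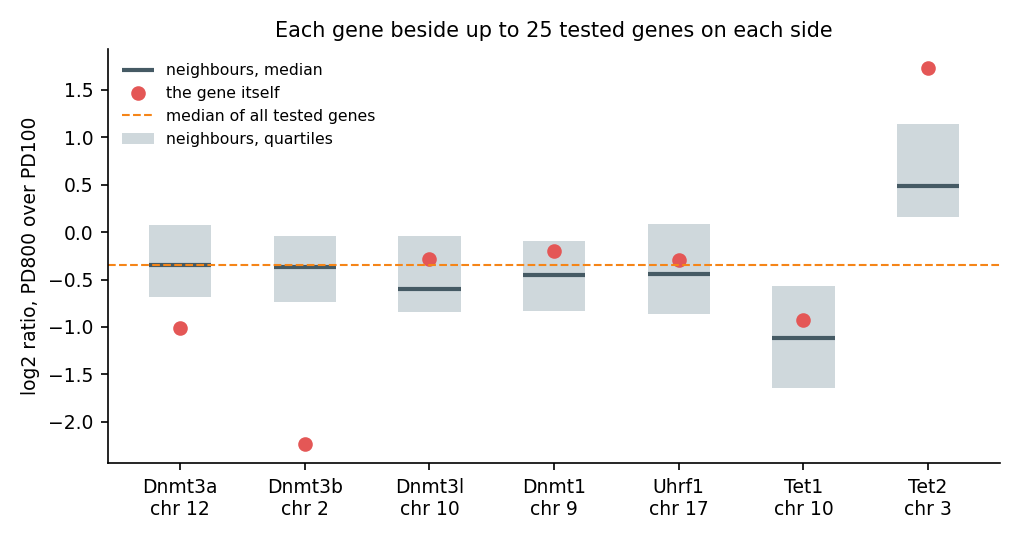
Log2 ratio of each gene (red points) beside its up to 25 nearest tested genes on each side of the same chromosome, shown by their median (dark line) and quartiles (grey box). Tet1 sits inside a box whose median is -1.11 and Tet2 above a box whose median is 0.48, while the boxes of Dnmt3a and Dnmt3b centre on the median of all tested genes (dashed).

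The wider pathway was described by 55 genes on 7 lists, of which 28 were tested. Of these, 5 were at least 2-fold lower in PD800 and 2 at least 2-fold higher, with a median log2 ratio of -0.45, against 16.9% and 9.22% of all tested genes. With median-of-ratios scaling Ehmt1, Tdrkh and Ahcy came within 2-fold (-0.85, -0.87 and -0.78), while Setd2 and Ogt, named after their values were seen, were past it (1.28 and 1.11). The gene farthest down was Dppa3, also called Stella, which keeps UHRF1 off chromatin and so opposes maintenance in early cells. It had 74 UMIs in PD100 and 7 in PD800, or 40.5 CPM against 2.71 CPM, and a log2 ratio of -3.90 (-5.26 to -2.79). None of its PD100 UMIs came from cells with endoderm markers.

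Partners of the maintenance machinery stayed within 2-fold in all 5 tested cases. Trim28, the corepressor that guards imprinted and retroviral sequences, had a log2 ratio of -0.52 (-0.63 to -0.40), and Hells, a chromatin remodeller needed for methylation of repeats, of -0.39 (-0.59 to -0.19). The median of the list was -0.52, or -0.17 relative to all tested genes.

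Of the 5 histone methyltransferases whose marks guide de novo methylation, only Ehmt1 was past the limit. Ehmt1, which with its partner Ehmt2 places repressive methyl groups on histone H3, had 94 and 53 UMIs and a log2 ratio of -1.33 (-1.84 to -0.82). Ehmt2 itself, named after its value was seen, was at 0.26 (-0.12 to 0.65), so the partners were not level with each other.

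All 5 tested genes of base removal and of TET partners lay within 2-fold. Tdg, the glycosylase that cuts out oxidised methylcytosine, had a log2 ratio of 0.10 (-0.22 to 0.42), and Gadd45a, a partner of that repair, of -0.31 (-0.73 to 0.11). Tet3, which was named after its values were seen, had 5 and 7 UMIs and could not be compared.

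Among the CpG readers, Kdm2a, a histone demethylase that binds unmethylated CpG islands, was at least 2-fold higher, with 88 and 321 UMIs and a log2 ratio of 1.37 (1.02 to 1.73). The other 3 tested readers lay within 2-fold. Kdm2a transcripts held 68 of 101 words of 20 bases that recur in at least 100 genes and are shared among Unc13d, Gm37750 and Dnajb14, genes picked after their log2 ratios of 2.91 to 3.33 had been seen. At least 10 of these words occurred in 497 tested genes (7.32%), whose median log2 ratio was 1.14, against -0.39 for the other genes. Transcripts of Pola1, which was left out of the S phase split above, held 62 of the words. The 7 members held 0 of these 101 words, Tet2 included. Members did hold other words that recur in at least 100 genes. These numbered 94 in Dnmt3a, 72 in Dnmt1, 59 in Tet2, 58 in Tet1, 1 in Uhrf1 and 0 in Dnmt3b and Dnmt3l. Kdm2a held 159 such words and Pola1 128, counted with those above. The part of recurring words in the counts of Kdm2a, Pola1 and the members was not tested.

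Of 5 suppliers of methyl groups and of the TET cofactor alpha-ketoglutarate, Ahcy was at least 2-fold lower. Ahcy, which clears the by-product of methyl transfer, had 49 and 29 UMIs and a log2 ratio of -1.26 (-1.97 to -0.56). The median of the list was -0.56, or -0.22 relative to all tested genes.

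**Figure D5:**
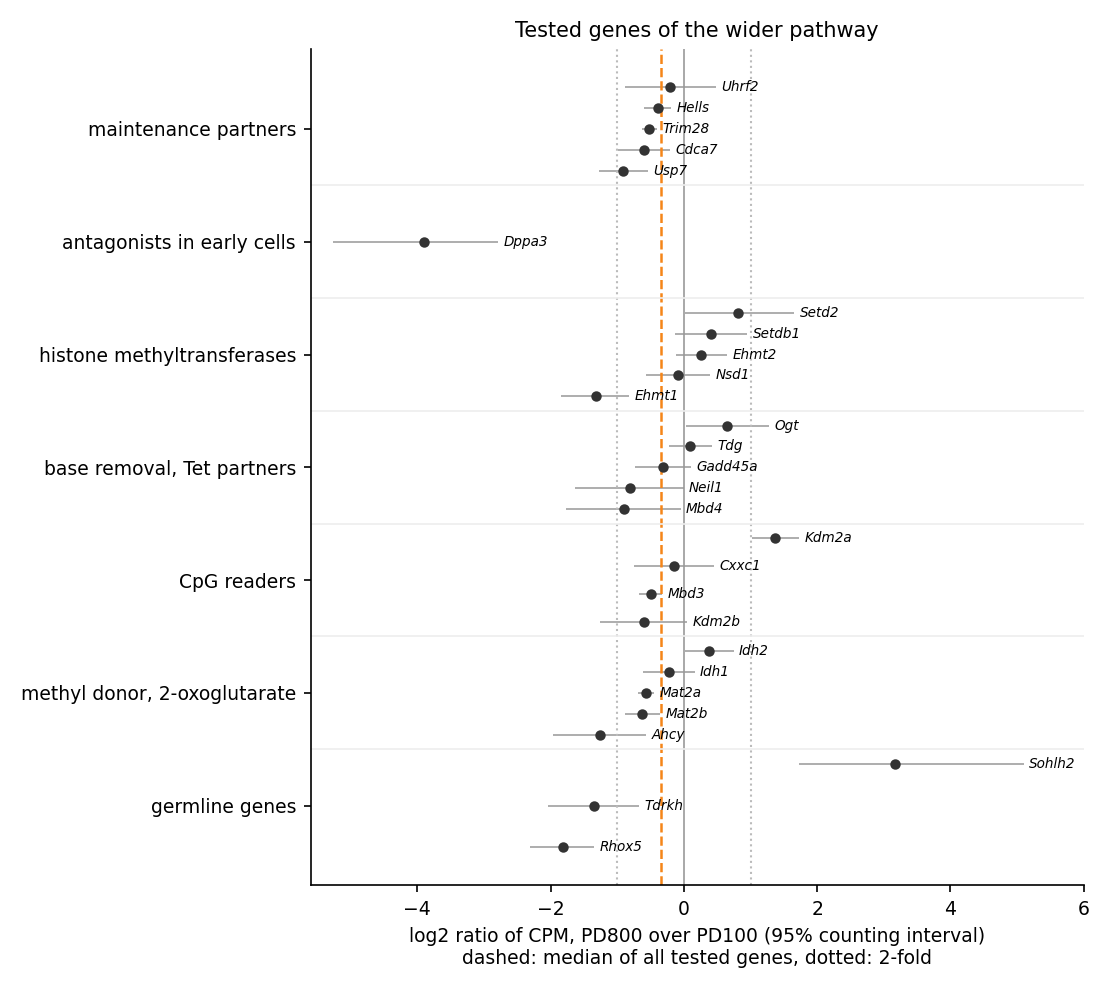
Log2 ratio of CPM, PD800 over PD100, of the 28 tested genes on 7 pathway lists, with 95% intervals for counting error. Dppa3 at -3.90 and Sohlh2 at 3.17 lie at the ends, and 21 of the 28 genes lie between the dotted 2-fold lines.

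Promoters of a set of germline genes are known to be kept silent by DNA methylation, and 18 such genes were looked at. Only 3 had 50 UMIs, and they did not go one way. Sohlh2, a germ cell transcription factor, had 4 UMIs in PD100 and 51 in PD800 (log2 ratio 3.17, 1.73 to 5.10), spread over 46 PD800 cells with at most 2 in a cell. Tdrkh, of the piRNA pathway, had 54 and 30 UMIs (-1.35, -2.04 to -0.68). Rhox5, a homeobox gene of the X chromosome, had 130 and 52 UMIs (-1.82, -2.31 to -1.35), but 71 of its PD100 UMIs came from the 40 cells with endoderm markers. Without those cells its log2 ratio was -0.76.

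The other 15 germline genes were sparse. Among them, and named after their values were seen, Mael had 4 and 25 UMIs, Stag3 had 7 and 30, Taf7l had 4 and 18, and Dazl had 2 and 15. Ddx4 had 19 and 16 UMIs and Tex101 had 7 and 3, and Asz1 had 0 in both libraries. The 18 genes summed to 151 CPM in PD100 and 117 CPM in PD800, or -0.37 (-0.61 to -0.13) as a log2 ratio. Without Rhox5 and Tdrkh, left out after their values were seen, the sum of the other 16 went the other way, from 49.8 to 84.9 CPM, at 0.77 (0.41 to 1.14). Of these 16, 8 had a ratio above 0 and 7 below, so the direction of the summed list rests on which genes are in it.

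Reads of overlapping genes can be misassigned to a member, because the strand setting of the counting is not given in the sources used here. Antisense Dnmt3aos had 1 UMI in each library, Dnmt3bos had 1 and 0, and Aire, which overlaps Dnmt3l on the other strand, had 17 and 12. Genes overlapping Dnmt1, Tet1 and Tet2 had at most 1 UMI in a library, and none overlapped Uhrf1.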

How the data were processed

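The deposited tables hold raw UMI counts by barcode and gene. Per the study's methods, the authors obtained these counts by mapping reads in the inDrops pipeline to a transcriptome built from GRCm38 (mm10 in the submitters' notes, which also name Scanpy). The annotation release was not given in the sources used here. Barcodes with fewer than 1000 counts or over 20% mitochondrial counts were left out, as the study states, which left more cells than it gives. Counts were summed per library and divided by its total (CPM), since cells are not replicates. Intervals were exact Poisson for levels, exact conditional (Clopper-Pearson) for ratios and exact binomial for shares. A gene counted as lower or higher from 2-fold on. Shares used cells thinned to 1000 UMIs (random seed 1). The classes of cells by S phase genes and by primed genes were also set after thinning to 1000 UMIs. Scrublet called 14 PD100 and 8 PD800 cells doublets (1.72% and 0.889%), which stayed in the comparison unless stated.

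Named genes were the 7 members and, on each of 7 pathway lists, every tested gene past 2-fold or otherwise the 2 with most UMIs. Genes named outside this rule are marked in the text. The members and lists were chosen with earlier results of these data known. Positions came from GENCODE M21 (GRCm38), which placed 6788 of 6984 tested genes, and promoters from RefSeq, which held all 7 members. The other settings tried covered the cell filter, scaling, doublets, the weight of cells, the minimum of UMIs, thinning and window sizes. Steps were tested on simulated counts. Python 3.11.15, NumPy 2.4.6, SciPy 1.17.1, pandas 2.3.3, Scanpy 1.11.5 and matplotlib 3.10.9 were used.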

Additional observations from a re-analysis of the deposited data

Results flagged for a closer look

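The members were also present in the 477 PD100 and 766 PD800 barcodes that were left out of the comparison, which held 246800 and 458381 UMIs, above the limit of 3 counts in every case but Tet2 in PD100 (2 UMIs). Dnmt3b stood at 77.0 CPM (46.4 to 120) in PD100 and 17.5 CPM (7.53 to 34.4) in PD800 barcodes. Dnmt1 stood at 72.9 CPM (43.2 to 115) and 24.0 CPM (11.98 to 42.9), and its PD100 value lay above that of the PD100 cells (26.3 CPM, 19.4 to 34.8). Dnmt3a was at 36.5 CPM (16.7 to 69.2) and 48.0 CPM (30.1 to 72.7), so that its order between the libraries was the opposite of that in cells, with intervals that overlap. Dnmt3l was at 166 and 124 CPM, Uhrf1 at 52.7 and 28.4 CPM, and Tet1 at 20.3 and 19.6 CPM. Tet2 was at 26.2 CPM in PD800 (13.5 to 45.7, 12 UMIs). Whether these barcodes were broken cells, empty droplets or shallow cells was not tested.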

How the results depend on the processing

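No paired analysis was possible because each passage had 1 library, and for the same reason no replicate could be left out. Dnmt3b stayed below 0 in all 9 settings run for the ratios (-2.42 to -1.61) and Tet2 above 0 in all 9 (1.52 to 2.20), each past 2-fold. The ranges were -1.16 to -0.53 for Dnmt3a, -1.40 to -0.46 for Tet1, -0.57 to 0.19 for Dnmt3l, -0.91 to 0.18 for Uhrf1 and -0.47 to 0.27 for Dnmt1. With equal weight of cells, the 2 members at least 2-fold lower were Dnmt3b and Tet1 (-1.10), while Dnmt3a stood at -0.95. The members at least 2-fold lower numbered 1 in place of 2 without a cell filter, at no more than 10% mitochondrial counts, with totals without mitochondrial counts, without doublets and with median-of-ratios scaling. That scaling put the median log2 ratio of the members at 0.18 and of all tested genes at 0.13, and counted 2 pathway genes lower and 4 higher, with 5.78% of tested genes lower and 16.5% higher. Totals without mitochondrial counts put the median of all tested genes at -0.29. Cells of at least 2000 counts left 1 pathway gene higher, and a minimum of 20 UMIs gave 5. A minimum of 200 UMIs left 0 members higher, because Tet2 had 74. In cells of at least 1000 but under 2000 counts, a setting chosen after the data were seen, 0 members were lower and 0 higher, since Dnmt3b (43 UMIs), Tet1 (43) and Tet2 (15) fell under the minimum of 50, and 1 pathway gene was lower and 1 higher. The median of all tested genes was -0.25 there. S phase classes were set on cells thinned to 1000 UMIs. In cells with over cells without S phase UMIs, Dnmt3b had a log2 ratio of -1.89 (-2.90 to -0.65) in PD100. In PD800 it was -1.94 (-3.87 to 1.14), and the cells without such UMIs numbered only 13 and 9. The split at the median put these ratios at 0.17 and 0.57, and without endoderm marker cells at 0.31 and 0.57. All intervals of the median split for Dnmt3b included 0. With 2 or more against 0 UMIs the Dnmt3b ratios were -1.91 and -1.90, and with 2 or more against 0 or 1, chosen later, -0.74 and -0.07. For Tet2 in PD100 the ratio went from -2.62 (-5.37 to 2.80), with 1 UMI in the 13 cells, to 0.0027 (-1.85 to 1.80) at the median. The other ratios of that split could not be formed, as 0 UMIs lay in the cells without S phase UMIs, apart from Dnmt3l in PD100, which held within its interval. Thinning with another seed or averaging over all draws moved none of 14 shares out of its interval, and neither did leaving out endoderm marker cells. Windows of 10 neighbours on each side gave medians within the quartiles of the wider windows for all 7. The cause of these shifts was not tested where no construction of a setting is named.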
